A study of Mus musculus with 9 samples.

Results

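The genes described here are 37 genes of glucose uptake, glycolysis, lactate handling and pyruvate entry into mitochondria, in mouse embryonic stem (ES) cells. They were chosen by name, for their place in the pathway, and no measured value enters the rule. Earlier results of these data were known when the choice was made. All 37 are among the 24044 named rows of the deposited table, and all 37 were among the 12711 genes tested. Pfkfb4 passed the expression filter only through its 3 libraries in 2i, so a difference between 2i and the other conditions was built into its selection.

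RNA was sequenced from ES cells grown on gelatin for 2 weeks in 3 conditions, called Serum, 2i and Paused. The cells were of 3 established lines (E14, v6.5, Oct4 GiP). Paused cells received INK128, an inhibitor of the kinase mTor, at 200 nM for those 2 weeks. Each line gave 1 library per condition, so every condition has 3 libraries from 3 lines (n = 3), and the lines rather than repeat cultures supply the spread. The study compared the paused state with the Serum and 2i states. The name Oct4 GiP belongs to a line with a reporter under control of the pluripotency gene Oct4, and 2i is the usual name of a medium with a MEK inhibitor and a GSK3 inhibitor. The labels give neither the composition of 2i nor the medium in which INK128 was applied, so effects of medium and of the inhibitor cannot be told apart. No label names a vehicle control.

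Glycolysis splits glucose into pyruvate in the cytosol. Pyruvate is then either reduced to lactate by lactate dehydrogenase and exported, or carried into mitochondria and converted to acetyl-CoA by the pyruvate dehydrogenase complex, which kinases of the Pdk family switch off and phosphatases switch back on. Rapidly dividing pluripotent cells are known for high glycolytic activity, and both mTor signalling and the transcription factors HIF-1 and Myc are known to promote expression of many of these enzymes.

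Values are FPKM, fragments scaled by transcript length and by library, so levels can be set side by side between genes. Summed FPKM ran from 1451983 to 2133969 per library and 11709 to 12112 genes reached 1 FPKM, but the read depth is unknown. Rows with no gene name held 52.8% to 64.0% of a library's summed FPKM. All 10 of 10 embryonic stem cell markers were tested, and they summed to 4340 to 5809 FPKM in Serum, 4189 to 4925 in 2i and 6268 to 6790 in Paused. Markers of fibroblast feeder cells summed to 31.7 to 138 FPKM in Serum, 3.89 to 5.12 in 2i and 7.40 to 13.9 in Paused, with 5 of 9 below 1 FPKM in every library. Tagln was the largest part of the Serum sum, at 64.0 ± 46.2 FPKM (mean ± SD, n = 3). Acta2 averaged 8.60 FPKM there, Col1a1 3.59 and Thy1 2.53. By the fit given below, these 4 were all lower in 2i and in Paused than in Serum. Trophoblast markers summed to 63.9 to 319 FPKM in Serum, 48.6 to 73.9 in 2i and 27.0 to 49.1 in Paused, with 1 of 8 below 1 FPKM throughout. These genes did not move together either, so the sum does not stand for each of them. Krt8 averaged 82.8 FPKM in Serum, 10.3 in 2i and 6.73 in Paused, and Krt18 54.2, 2.98 and 9.16. Tfap2c (29.9, 42.9 and 17.0) and Eomes (2.13, 4.10 and 0.937) had higher means in 2i than in Serum. Neural markers summed to 90.0 to 120 FPKM in Serum, 34.5 to 100 in 2i and 62.1 to 82.1 in Paused. The 5 neural genes did not move together, so their sum does not stand for each gene. By the fit and threshold given below, Sox1 (log2 difference 1.53) and Pax6 (1.29) were higher in Paused than in Serum. Nes (-2.04) was lower. When each of the 9 libraries was left out in turn, the calls of Sox1 and Pax6 held in 3 fits each and that of Nes in 5. Primitive endoderm markers stayed between 2.42 and 5.01 FPKM in sum in all 9 libraries, and mesoderm markers between 0.987 and 17.6, with the upper end in Serum. Feeder sums were thus higher in every Serum library than in any other library. Trophoblast and neural sums were higher in every Serum library than in any Paused library and overlapped between Serum and 2i, and mesoderm sums overlapped in all comparisons. Several genes below were also highest in Serum, and the part of these markers in that was not tested.

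Many genes of early and late glycolysis were lower in 2i, in Paused or in both than in Serum, and others were higher in 2i. Differences are given as log2 fold changes on the log2(FPKM + 1) scale ± the standard error of the fit, and a gene is called higher or lower where its limma p, adjusted by Benjamini-Hochberg over all 12711 genes, is under 0.05. In Paused against Serum, 3 of the 37 genes were higher (8.11%, against 7.64% of all genes) and 10 were lower (27.0%, against 10.5% of all genes). In 2i against Serum, 7 were higher (18.9%, against 21.7% of all genes) and 14 were lower (37.8%, against 18.9% of all genes). In Paused against 2i, 10 were higher (27.0%, against 19.8% of all genes) and 9 were lower (24.3%, against 24.6% of all genes). Without Pfkfb4, 6 of 36 were higher in 2i against Serum (16.7%) and 8 of 36 lower in Paused against 2i (22.2%). The median log2 difference of the 37 genes was -0.31 in Paused against Serum, -0.15 in 2i against Serum and 0.00 in Paused against 2i, beside -0.01, 0.02 and -0.03 over all genes. The share called lower against Serum thus stood above the share of all genes in both comparisons, while the share called higher against Serum was close to it. The 3 comparisons share libraries, so they are not independent of each other. In bulk RNA, fewer cells of a type and less RNA per cell cannot be told apart.

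The Paused against Serum calls were the least stable. None of the 13 remained without E14 Paused, without v6.5 Paused or without Oct4 GiP Serum, removals that left 12 to 38 genes called over the whole table, against 2311 with all libraries. Without Oct4 GiP Paused 1 remained, Slc2a1. Without E14 Serum 6 remained, without v6.5 Serum 7, without Oct4 GiP 2i 8, without v6.5 2i 11 and without E14 2i all 13. In 2i against Serum 16 of 21 calls held without any single library, and in Paused against 2i 14 of 19. How many of all genes called held in the same way was not computed. Whether these calls were more or less stable than those of other genes is thus unknown.

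The authors' second set of columns holds the same FPKM multiplied by a constant per library, 1.81 to 1.99 for Paused, 2.45 to 3.17 for 2i and 3.40 to 3.74 for Serum. On that scale the median of all genes was -0.88 in Paused against Serum, -0.33 in 2i against Serum and -0.56 in Paused against 2i. The 37 genes then split into 0 higher and 29 lower, 3 higher and 17 lower, and 8 higher and 20 lower, beside 48 and 9779, 1240 and 4538, and 789 and 6922 of all genes. Values below are FPKM unless this scale is named.

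**Figure D1:**
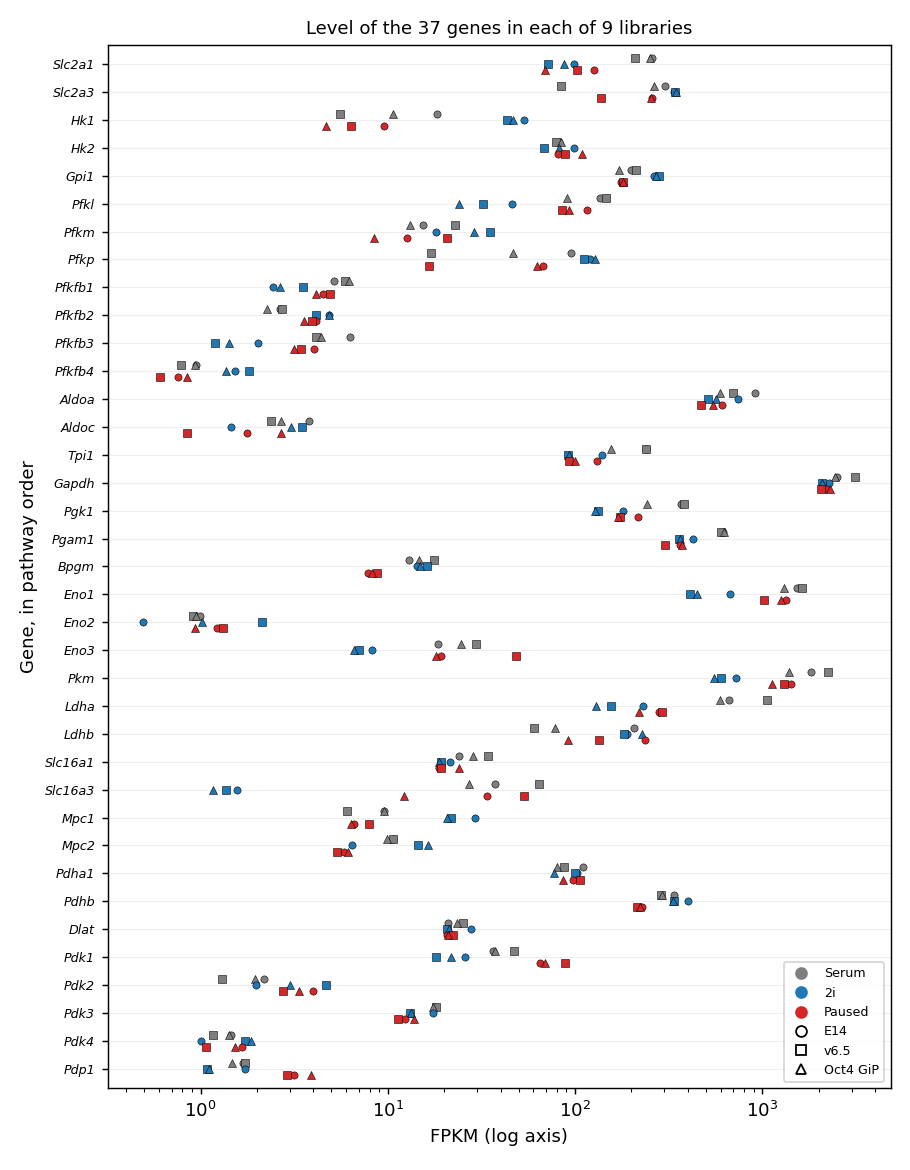
Level of each of the 37 genes (rows, in pathway order) in the 9 libraries, in FPKM on a log axis; colour gives the condition and shape the cell line. Gapdh reaches 3123 FPKM while Pfkfb4 and Eno2 stay near 1 FPKM, and for Slc16a3 the 3 libraries of 2i lie between 1.17 and 1.57 FPKM, below all 6 others.

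Glucose enters ES cells through facilitative transporters, of which Slc2a1 (GLUT1; chromosome 4, 119108711 to 119137983, plus strand, GRCm38) and Slc2a3 (GLUT3) were measured. Slc2a1 stood at 258, 209 and 253 FPKM in Serum, given here and for all values below in the order E14, v6.5, Oct4 GiP. It stood at 99.0, 72.0 and 87.4 FPKM in 2i, and at 126, 102 and 69.3 FPKM in Paused. Every Serum library was above every 2i and every Paused library, while 2i and Paused overlapped. Slc2a1 was lower in 2i (log2 difference -1.47 ± 0.18, adjusted p = 0.00245) and in Paused (-1.30 ± 0.18, adjusted p = 0.0137) than in Serum.

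The other transporter gene was called in no comparison. Slc2a3 was at 303, 84.5 and 262 FPKM in Serum, at 337, 342 and 348 FPKM in 2i, and at 258, 137 and 256 FPKM in Paused. The v6.5 line was the low library in both Serum and Paused, and the 3 lines lay close together in 2i. Its difference between 2i and Serum was 0.85 ± 0.33 (adjusted p = 0.0814). As a share of the summed FPKM of both transporters, which no constant per library can alter, Slc2a3 made up 54.1%, 28.7% and 50.9% in Serum, 77.3%, 82.6% and 79.9% in 2i, and 67.2%, 57.3% and 78.7% in Paused. All 3 Serum shares lay below all shares of the other conditions. The mean share was 44.6% ± 13.8 (SD, n = 3) in Serum, 79.9% ± 2.66 in 2i and 67.8% ± 10.7 in Paused. The two-sided exact permutation test gave p = 0.1 for either condition against Serum, the smallest value that 3 against 3 libraries allow, and 0.15 after Benjamini-Hochberg adjustment over 27 such tests.

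Hexokinases trap glucose in the cell as glucose-6-phosphate. Hk1 (chromosome 10, 62268855 to 62379908, minus strand, GRCm38) was at 18.4, 5.56 and 10.7 FPKM in Serum, at 53.7, 43.4 and 46.8 FPKM in 2i, and at 9.60, 6.35 and 4.69 FPKM in Paused. The 2i libraries stood clear of all others, and Serum and Paused overlapped. Hk1 was higher in 2i than in Serum (2.10 ± 0.27, adjusted p = 0.00265) and lower in Paused than in 2i (-2.68 ± 0.27, adjusted p = 0.00112). The more abundant Hk2 lay at 82.4, 78.9 and 84.6 FPKM in Serum, 98.3, 68.5 and 81.9 FPKM in 2i, and 81.4, 88.6 and 108 FPKM in Paused. Its ranges overlapped in all 3 comparisons, none was called, and its difference between 2i and Serum was 0.00 ± 0.14. Hk2 made up 88.0% ± 5.86 of hexokinase FPKM in Serum, 63.2% ± 1.76 in 2i and 92.9% ± 3.22 in Paused (mean ± SD of 3 lines). In 2i the share did not overlap with either other condition (exact permutation p = 0.1 each, 0.15 adjusted).

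Gpi1, which converts glucose-6-phosphate to fructose-6-phosphate, was at 194 ± 21.2 FPKM in Serum, 271 ± 8.89 in 2i and 179 ± 3.0 in Paused, each with its SD (n = 3). It was higher in 2i than in Serum (0.48 ± 0.09, adjusted p = 0.00677) and lower in Paused than in 2i (-0.60 ± 0.09, adjusted p = 0.00292). On the authors' scale the difference between 2i and Serum was 0.12 (adjusted p = 0.502).

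Phosphofructokinase, the main control step of glycolysis, is built from liver-type (Pfkl), muscle-type (Pfkm) and platelet-type (Pfkp) subunits, and Pfkl and Pfkp moved in opposite directions in 2i. Pfkl was at 135, 147 and 90.9 FPKM in Serum, at 46.0, 32.2 and 24.1 FPKM in 2i, and at 116, 85.5 and 92.9 FPKM in Paused. All 2i values were below all others. Pfkl was lower in 2i than in Serum (-1.86 ± 0.17, adjusted p = 0.00134) and higher in Paused than in 2i (1.54 ± 0.17, adjusted p = 0.00147). Pfkp was at 95, 17.1 and 46.5 FPKM in Serum, at 119.6, 111 and 127 FPKM in 2i, and at 67.6, 16.6 and 62.7 FPKM in Paused. The lines differed widely in Serum and Paused, with v6.5 lowest in both, and came together in 2i above every other library.

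Pfkp was higher in 2i than in Serum (1.46 ± 0.43, adjusted p = 0.035) and lower in Paused than in 2i (-1.50 ± 0.43, adjusted p = 0.0302). Both calls were lost without E14 Paused, Oct4 GiP Serum, Oct4 GiP 2i or Oct4 GiP Paused, the first also without v6.5 Serum and the second also without v6.5 Paused. Neither passed without the cell line as a block (adjusted p = 0.12 and 0.107). Pfkm, at 17.2 ± 5.16 FPKM in Serum, 27.4 ± 8.63 in 2i and 13.9 ± 6.16 in Paused, was lower in Paused than in 2i (-0.96 ± 0.22, adjusted p = 0.0142; 0.0607 without the block). The summed FPKM of the 3 subunit genes was 194 ± 47.9 in Serum, 181 ± 2.72 in 2i and 161 ± 37 in Paused (mean ± SD of 3 lines), while Pfkp made up 26.2% ± 15.3 of it in Serum, 66.0% ± 4.24 in 2i and 28.7% ± 13.3 in Paused. Its share in 2i lay above that of all other libraries (exact permutation p = 0.1 against either condition, 0.15 adjusted).

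The 4 Pfkfb genes encode the bifunctional enzymes that make and degrade fructose-2,6-bisphosphate, the allosteric activator of phosphofructokinase. All were low, with no library above 6.32 FPKM. Pfkfb3, the isoform known for high kinase activity, was at 6.32, 4.16 and 4.42 FPKM in Serum, at 2.03, 1.19 and 1.41 FPKM in 2i, and at 4.02, 3.44 and 3.14 FPKM in Paused. The conditions did not overlap, with Serum highest and 2i lowest. Pfkfb3 was lower in 2i than in Serum (-1.22 ± 0.11, adjusted p = 0.0013) and higher in Paused than in 2i (0.84 ± 0.11, adjusted p = 0.00233), and its Paused against Serum difference of -0.38 ± 0.11 was not called (adjusted p = 0.0604). Of the summed FPKM of the 4 genes, Pfkfb3 made up 34.7% ± 6.12 in Serum, 14.5% ± 3.81 in 2i and 27.8% ± 1.83 in Paused (mean ± SD of 3 lines), again with no overlap (exact permutation p = 0.1 for each of the 3 comparisons, 0.15 adjusted).

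Pfkfb1 followed the same order, at 5.78 ± 0.526 FPKM in Serum, 2.88 ± 0.582 in 2i and 4.53 ± 0.373 in Paused. It was lower in 2i than in Serum (-0.81 ± 0.12, adjusted p = 0.00389) and higher in Paused than in 2i (0.52 ± 0.12, adjusted p = 0.0144), the latter lost without E14 Paused or Oct4 GiP 2i and not called on the authors' scale (0.09, adjusted p = 0.602). Pfkfb2 ran the other way, at 2.67, 2.74 and 2.28 FPKM in Serum, 4.87, 4.12 and 4.84 in 2i, and 4.12, 3.96 and 3.56 in Paused. Serum was lowest without overlap, and Pfkfb2 was higher in 2i (0.65 ± 0.11, adjusted p = 0.00635) and in Paused (0.45 ± 0.11, adjusted p = 0.0405). On the authors' scale these differences were 0.44 (adjusted p = 0.0721) and -0.30 (adjusted p = 0.148), so the direction in Paused turned. Pfkfb4, at 0.890 ± 0.0886 FPKM in Serum, 1.57 ± 0.223 in 2i and 0.739 ± 0.121 in Paused, was tested only because its 2i libraries exceeded 1 FPKM, so its comparisons with 2i carry no weight and its values are given as a description.

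Aldolase cleaves fructose-1,6-bisphosphate, and triose phosphate isomerase interconverts its products. Aldoa supplied nearly all aldolase FPKM, with Aldoc at 0.402% ± 0.0574 of the sum in Serum, 0.468% ± 0.246 in 2i and 0.321% ± 0.158 in Paused (mean ± SD of 3 lines). Aldoa was at 910.0, 700.4 and 597 FPKM in Serum, 739.7, 512 and 565 FPKM in 2i, and 611, 469 and 545 FPKM in Paused. Within each line Paused was below Serum although the groups overlapped, and the difference was called (-0.43 ± 0.11, adjusted p = 0.0421) but was not without the cell line as a block (adjusted p = 0.172). Aldoc, at 1.77 to 2.96 FPKM on average, was called in no comparison. Tpi1 was at 239, 239 and 156 FPKM in Serum, at 140.1, 91.7 and 93.2 FPKM in 2i, and at 131, 92.6 and 99.6 FPKM in Paused. Serum lay above both other conditions, which overlapped. Tpi1 was lower in 2i (-0.96 ± 0.15, adjusted p = 0.00481) and in Paused (-0.96 ± 0.15, adjusted p = 0.0155) than in Serum.

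**Figure D2:**
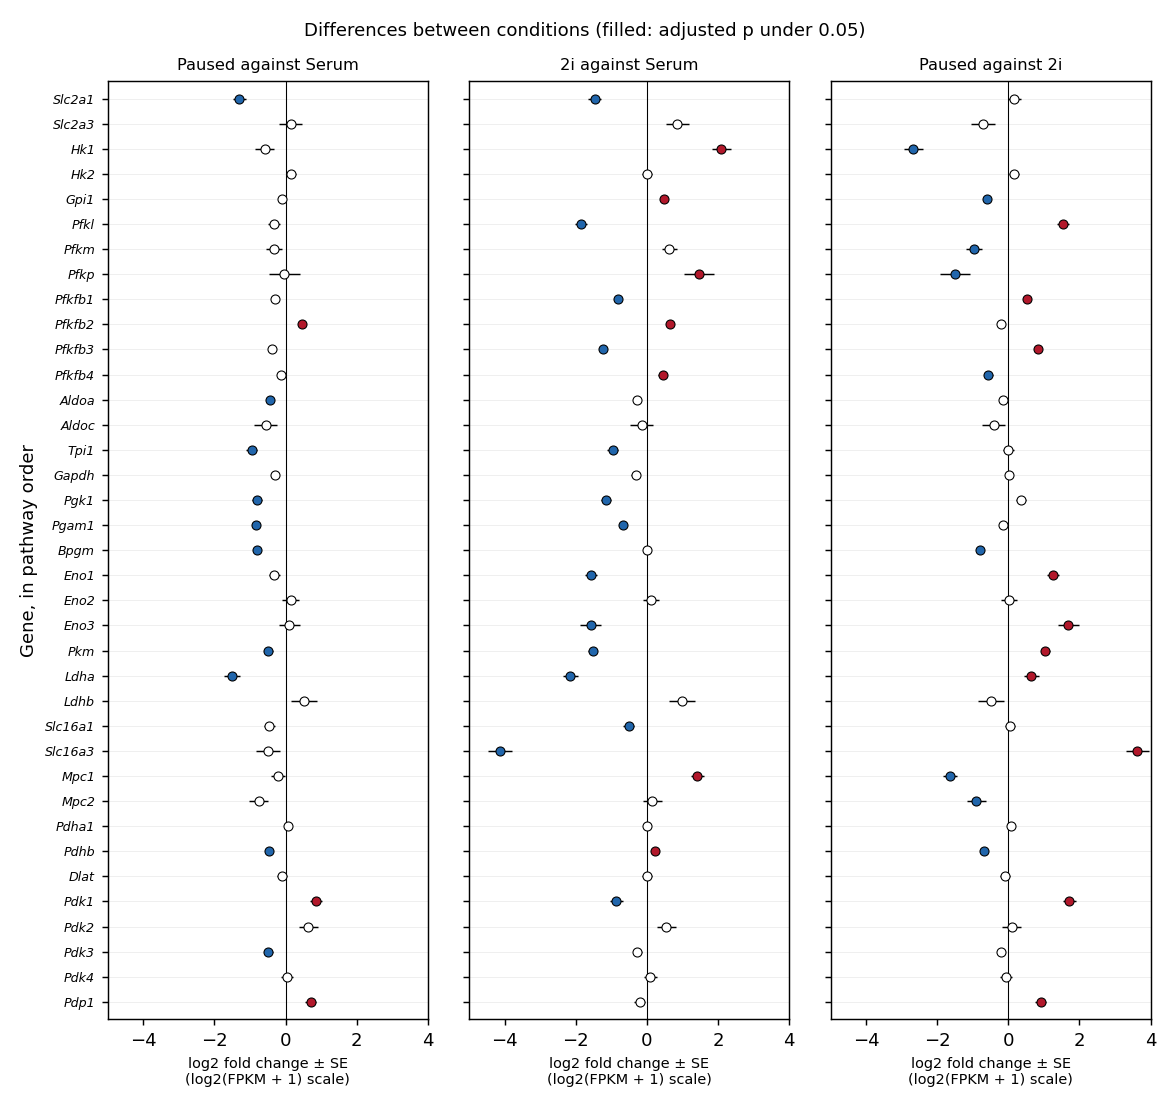
Log2 fold change ± standard error of each gene (rows, in pathway order) on the log2(FPKM + 1) scale in the 3 comparisons; filled points are called (adjusted p under 0.05), red higher and blue lower. In Paused against Serum 10 points are blue and 3 red, and the widest difference is that of Slc16a3, at -4.13 in 2i against Serum and 3.63 in Paused against 2i.

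The later steps of glycolysis, from Gapdh to pyruvate kinase, yields ATP and NADH. Of its 8 genes 4 were lower in Paused (against 10.5% of all genes) and 5 were lower in 2i than in Serum (against 18.9%), and none was called higher. The 4 Paused calls were all lost without E14 Paused, v6.5 Paused, Oct4 GiP Paused or Oct4 GiP Serum. Gapdh, the dehydrogenase of glyceraldehyde-3-phosphate and the most abundant of the 37, was at 2518, 3123 and 2436 FPKM in Serum, 2278, 2091 and 2079.7 FPKM in 2i, and 2202, 2064 and 2285 FPKM in Paused. Serum was highest without overlap, mostly through v6.5, but neither difference was called (Paused -0.29 ± 0.12, adjusted p = 0.125; 2i -0.32 ± 0.12, adjusted p = 0.0709). Gapdh shares near-identical stretches with 77 other genes, 73 of them pseudogenes, so its level is uncertain.

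Pgk1, which makes ATP from 1,3-bisphosphoglycerate, was at 368, 381 and 243 FPKM in Serum, at 181, 132 and 127 FPKM in 2i, and at 216, 175 and 169 FPKM in Paused. All Serum libraries were above all others. Pgk1 was lower in 2i (-1.15 ± 0.13, adjusted p = 0.00202) and in Paused (-0.80 ± 0.13, adjusted p = 0.017). Pgam1, the phosphoglycerate mutase, was at 614, 599 and 622 FPKM in Serum, at 424, 361 and 363 FPKM in 2i, and at 363, 302 and 372 FPKM in Paused. Its Serum values lay close together and far above the rest, and it was lower in 2i (-0.68 ± 0.09, adjusted p = 0.00289) and in Paused (-0.83 ± 0.09, adjusted p = 0.0108).

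Bpgm makes 2,3-bisphosphoglycerate in a side branch of the pathway. It was at 13.1, 17.6 and 14.7 FPKM in Serum, at 14.3, 16.1 and 14.8 FPKM in 2i, and at 7.83, 8.74 and 8.26 FPKM in Paused. Paused was lowest in every line with no overlap, and Serum and 2i covered the same range. Bpgm was lower in Paused than in Serum (-0.79 ± 0.09, adjusted p = 0.0114) and than in 2i (-0.79 ± 0.09, adjusted p = 0.00156).

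Enolase followed another pattern, with low levels in 2i and not in Paused. Eno1 was at 1537, 1632 and 1309.8 FPKM in Serum, at 669, 414 and 450.0 FPKM in 2i, and at 1334, 1018 and 1265 FPKM in Paused. The 2i values lay below all others, and Serum and Paused overlapped. Eno1 was lower in 2i than in Serum (-1.57 ± 0.16, adjusted p = 0.00165) and higher in Paused than in 2i (1.26 ± 0.16, adjusted p = 0.00211), and Paused against Serum was not called (-0.31 ± 0.16, adjusted p = 0.217). A near-identical copy, Eno1b, is listed at 199 to 977 FPKM, so the split of reads between these genes is uncertain. Eno3, the muscle enolase, was at 24.3 ± 5.62 FPKM in Serum, 7.30 ± 0.824 in 2i and 28.6 ± 17.3 in Paused, where v6.5 reached 48.5 FPKM. It was lower in 2i than in Serum (-1.59 ± 0.29, adjusted p = 0.00815) and higher in Paused than in 2i (1.69 ± 0.29, adjusted p = 0.0057). Eno2, the neuronal enolase, stayed between 0.495 and 2.14 FPKM, was called in no comparison, and made up at most 0.505% of enolase FPKM.

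Pyruvate kinase (Pkm) completes glycolysis. Pkm was at 1820.2, 2230.0 and 1394 FPKM in Serum, at 723, 602 and 551 FPKM in 2i, and at 1415, 1298 and 1132 FPKM in Paused. The 2i values were well below all others, and the highest Paused library overlapped with the lowest Serum library. Pkm was lower in 2i than in Serum (-1.52 ± 0.13, adjusted p = 0.00101) and higher in Paused than in 2i (1.04 ± 0.13, adjusted p = 0.00186). It was also lower in Paused than in Serum (-0.48 ± 0.13, adjusted p = 0.0467), a call that was lost without the cell line as a block (adjusted p = 0.117).

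Lactate dehydrogenase, built from Ldha and Ldhb subunits, interconverts pyruvate and lactate. Ldha (chromosome 7, 46841475 to 46855627, plus strand, GRCm38) was at 660.5, 1059 and 598 FPKM in Serum, at 231, 155 and 129.8 FPKM in 2i, and at 282, 293 and 220.0 FPKM in Paused. Every Serum library stood above every library of the other conditions. Ldha was lower in 2i (-2.16 ± 0.21, adjusted p = 0.00158) and in Paused (-1.51 ± 0.21, adjusted p = 0.0137) than in Serum. Paused and 2i overlapped, since Oct4 GiP Paused lay below E14 2i, but Paused was above 2i within each line and the difference was called (0.65 ± 0.21, adjusted p = 0.0474). That call was lost without v6.5 2i, E14 Paused, v6.5 Paused or any of the 3 Oct4 GiP libraries, without the block (adjusted p = 0.0887) and on the authors' scale (0.09, adjusted p = 0.776).

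Ldhb was at 206, 60.2 and 78.3 FPKM in Serum, at 190.5, 182 and 227 FPKM in 2i, and at 236, 135 and 91.7 FPKM in Paused. E14 was high in all conditions and the other lines were low in Serum, so the groups overlapped, and no comparison was called. Ldhb made up 23.7%, 5.38% and 11.6% of lactate dehydrogenase FPKM in Serum, 45.1%, 54.0% and 63.6% in 2i, and 45.6%, 31.5% and 29.4% in Paused. Serum shares lay below all others in both comparisons. The mean share was 13.6% ± 9.34 in Serum, 54.3% ± 9.25 in 2i and 35.5% ± 8.78 in Paused (mean ± SD of 3 lines; exact permutation p = 0.1 for either against Serum, 0.15 adjusted). Between Paused and 2i the shares overlapped (exact permutation p = 0.2, 0.27 adjusted).

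**Figure D3:**
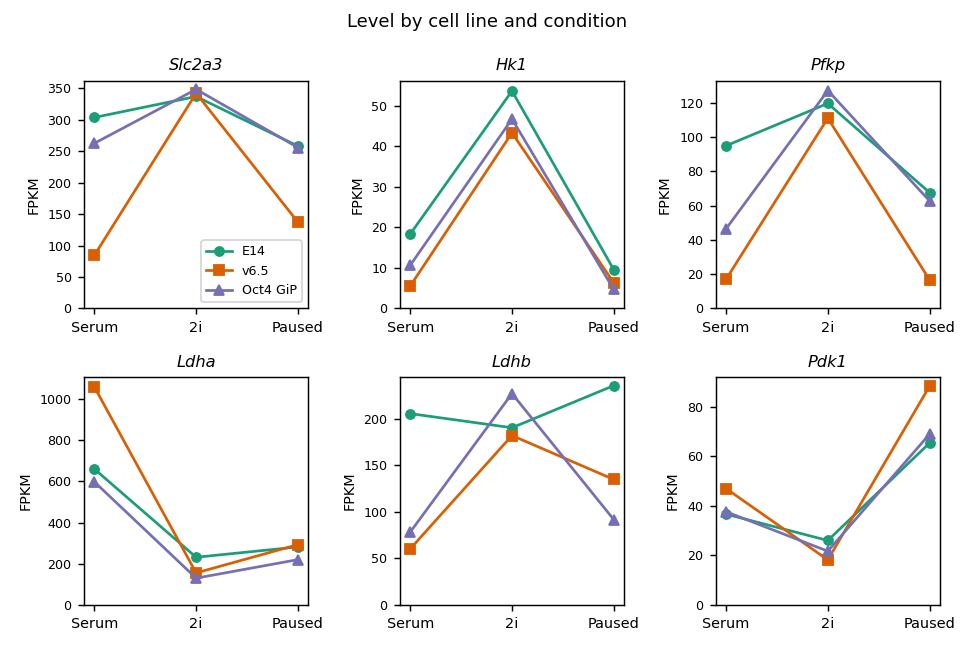
Level in FPKM (y axes, each from 0) of 6 genes in the 3 conditions, with a line joining the 3 libraries of each cell line. Hk1 and Pfkp peak in 2i in every line, Ldha is highest in Serum and Pdk1 in Paused in every line, while Ldhb in E14 stays between 190.5 and 236 FPKM.

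Lactate leaves the cell through monocarboxylate transporters. Slc16a3 (MCT4, known for lactate export; chromosome 11, 120948480 to 120960868, plus strand, GRCm38) was at 37.4, 64.4 and 27.1 FPKM in Serum, at 1.57, 1.38 and 1.17 FPKM in 2i, and at 34.0, 53.5 and 12.2 FPKM in Paused. The 2i libraries were near 1 FPKM in all lines, and Serum and Paused overlapped. Slc16a3 was lower in 2i than in Serum (-4.13 ± 0.33, adjusted p = 0.000921) and higher in Paused than in 2i (3.63 ± 0.33, adjusted p = 0.000894), and Paused against Serum was not called (-0.50 ± 0.33, adjusted p = 0.33). Slc16a1 (MCT1) was at 24.1, 34.2 and 28.7 FPKM in Serum, 21.6, 19.3 and 18.8 FPKM in 2i, and 18.8, 19.2 and 24.0 FPKM in Paused. Serum was highest throughout, by a small margin. The 2i difference of Slc16a1 was called (-0.51 ± 0.15, adjusted p = 0.039), and held only without E14 Serum, E14 2i or Oct4 GiP Paused among the 9 removals, and the Paused difference was not (-0.46 ± 0.15, adjusted p = 0.081). Slc16a3 made up 58.2% ± 8.67 of the FPKM of both transporters in Serum, 6.43% ± 0.512 in 2i and 57.2% ± 20.9 in Paused (mean ± SD of 3 lines). The 2i shares did not overlap with those of either other condition (exact permutation p = 0.1 each, 0.15 adjusted).

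Slc2a1, Tpi1, Pgk1, Pgam1, Pkm and Ldha were the 6 genes called lower than Serum in both 2i and Paused. The share of all genes with both calls was not computed, and both comparisons use the same Serum libraries. Many glycolytic promoters are known to carry the core letters ACGTG of the element bound by HIF-1, and CACGTG is the letter pattern bound by Myc and related factors. Promoter windows from RefSeq (GRCm38.p6) were matched to 35 of the 37 genes, without Slc2a3 and Pdp1. Searched on both strands over the 250 bases before each RefSeq start, ACGTG or its reverse complement CACGT stood in 19 of the 55 windows of these genes (34.5%) and in 16.6% of all 32851 windows. By gene, 15 of the 35 had a match in at least 1 window, and 18.5% of 27025 genes with a window did. A gene with more windows has more chances of a match, and these shares were not adjusted for the number of windows per gene. The background was also not limited to the genes tested for expression. CACGTG, which contains both of those strings, stood in 6 of the 55 windows (10.9%) and in 6.02% of all windows. Of the 6 genes, 5 had a match and are printed here because they were lower than Serum in both conditions. Each line is 50 bases, 5′ to 3′ on the gene's strand (plus in all 5), with matches in capitals. A match is a description of letters and not of binding.
Slc2a1 (chr4:119108686-119108735): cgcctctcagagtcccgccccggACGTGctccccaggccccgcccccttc
Pgk1 (chrX:106186946-106186995): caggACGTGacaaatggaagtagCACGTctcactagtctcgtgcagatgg
Pgam1 (chr19:41911734-41911783): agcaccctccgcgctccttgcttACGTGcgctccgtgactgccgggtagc
Pkm (chr9:59657129-59657178): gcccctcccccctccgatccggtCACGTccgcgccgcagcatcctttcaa
Ldha (chr7:46845747-46845796): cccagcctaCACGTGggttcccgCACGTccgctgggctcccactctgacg

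Ldha and Pkm have 2 windows each, with a match in 1 of them, and only that window is printed. Both printed stretches lie inside the gene's span (Ldha 46841475 to 46855627, Pkm 59656368 to 59679375). The RefSeq start that each precedes is thus not the first base of the gene. The printed Ldha window held 5 matches, of which 3 lie in the stretch shown, where CACGTG counts on both strands. Pgk1 had 2 matches, and Slc2a1, Pgam1 and Pkm had 1 each. Tpi1 had none in its window. Of the 29 other genes with a window 10 had a match, namely Hk2, Pfkm, Pfkfb2, Pfkfb3, Aldoa, Slc16a1, Slc16a3, Pdhb, Pdk2 and Pdk3. These include genes that were not called and genes called in either direction.

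Pyruvate enters mitochondria through a carrier of Mpc1 and Mpc2. Mpc1 was at 9.55, 6.04 and 9.51 FPKM in Serum, at 29.3, 21.8 and 20.7 FPKM in 2i, and at 6.58, 7.91 and 6.37 FPKM in Paused. The 2i libraries stood clear above all others. Mpc1 was higher in 2i than in Serum (1.42 ± 0.19, adjusted p = 0.00318) and lower in Paused than in 2i (-1.64 ± 0.19, adjusted p = 0.00169). Mpc2 was at 10.6, 10.6 and 9.95 FPKM in Serum, 6.47, 14.5 and 16.5 FPKM in 2i, and 5.81, 5.34 and 6.12 FPKM in Paused. Paused was lowest without overlap, and E14 was the low line in 2i. Mpc2 was lower in Paused than in 2i (-0.91 ± 0.27, adjusted p = 0.0345), a call that held only without E14 Serum, E14 2i or Oct4 GiP Serum among the 9 removals, and Paused against Serum was not called (-0.76 ± 0.27, adjusted p = 0.0966).

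The pyruvate dehydrogenase complex was represented by the E1 subunits Pdha1 and Pdhb and the E2 subunit Dlat. Pdhb was at 337, 286 and 293 FPKM in Serum, at 400.4, 336 and 335 FPKM in 2i, and at 229, 214 and 222 FPKM in Paused. Paused was lowest in every line without overlap. Pdhb was lower in Paused than in Serum (-0.46 ± 0.07, adjusted p = 0.0153) and than in 2i (-0.68 ± 0.07, adjusted p = 0.00127). It was called higher in 2i than in Serum (0.22 ± 0.07, adjusted p = 0.0475), with overlapping groups. That call was lost without any 1 of the 9 libraries, without the block (adjusted p = 0.119) and relative to the median gene (0.11, adjusted p = 0.194), and on the authors' scale the value was -0.15 (adjusted p = 0.428). Its partner Pdha1, at 92.5 ± 15.3 FPKM in Serum, 93.1 ± 13.9 in 2i and 97.1 ± 10.1 in Paused, was called in no comparison. Dlat, at 23.2 ± 2.19, 23.3 ± 4.07 and 21.4 ± 0.825 FPKM in the same order, was not called either.

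Pdk kinases inactivate the complex by phosphorylation. Pdk1 (chromosome 2, 71873224 to 71903858, plus strand, GRCm38) was at 36.6, 46.9 and 37.6 FPKM in Serum, at 26.0, 18.1 and 21.6 FPKM in 2i, and at 65.3, 88.3 and 68.9 FPKM in Paused. The conditions did not overlap, with Paused highest and 2i lowest in every line. Of the 37 genes, Pdk1 was the only one called higher in Paused than in both other conditions and lower in 2i than in Serum. The differences were 0.86 ± 0.18 in Paused against Serum (adjusted p = 0.0271), -0.86 ± 0.18 in 2i against Serum (adjusted p = 0.0122) and 1.71 ± 0.18 in Paused against 2i (adjusted p = 0.00128). The 2i against Serum call was lost without v6.5 Serum (adjusted p = 0.0503). When single libraries were left out, the Paused against Serum call held only without E14 2i or v6.5 2i. On the authors' scale Pdk1 differed by -0.059 between Paused and Serum (adjusted p = 0.828) and by 1.18 between Paused and 2i (adjusted p = 0.00467).

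Within its family Pdk1 had the highest FPKM in every library. Its share of summed Pdk FPKM was 62.9%, 69.6% and 64.5% in Serum, 55.9%, 48.1% and 54.4% in 2i, and 78.4%, 85.3% and 78.6% in Paused. No share of one condition reached into another. The means were 65.6% ± 3.50, 52.8% ± 4.12 and 80.8% ± 3.92 (SD, n = 3; exact permutation p = 0.1 for each comparison, 0.15 adjusted). Pdk3 moved the other way in Paused, at 18, 18 and 17.3 FPKM in Serum, 17.5, 13.2 and 13.3 in 2i, and 12.3, 11.4 and 13.9 in Paused. Serum was above Paused without overlap, and Pdk3 was lower in Paused than in Serum (-0.48 ± 0.12, adjusted p = 0.045). Pdk2, at 1.81 ± 0.462 FPKM in Serum, 3.22 ± 1.36 in 2i and 3.37 ± 0.611 in Paused, was not called (Paused against Serum 0.64 ± 0.27, adjusted p = 0.146), and neither was Pdk4, at 1.35 to 1.54 FPKM on average.

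The phosphatase subunit Pdp1, which reactivates the complex, was also higher in Paused. It was at 1.69, 1.72 and 1.47 FPKM in Serum, at 1.72, 1.08 and 1.11 FPKM in 2i, and at 3.16, 2.91 and 3.89 FPKM in Paused. Paused values lay above all others, and Serum and 2i overlapped. Pdp1 was higher in Paused than in Serum (0.71 ± 0.15, adjusted p = 0.0276) and than in 2i (0.91 ± 0.15, adjusted p = 0.00478). On the authors' scale the former was 0.08 (adjusted p = 0.776).

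**Figure D4:**
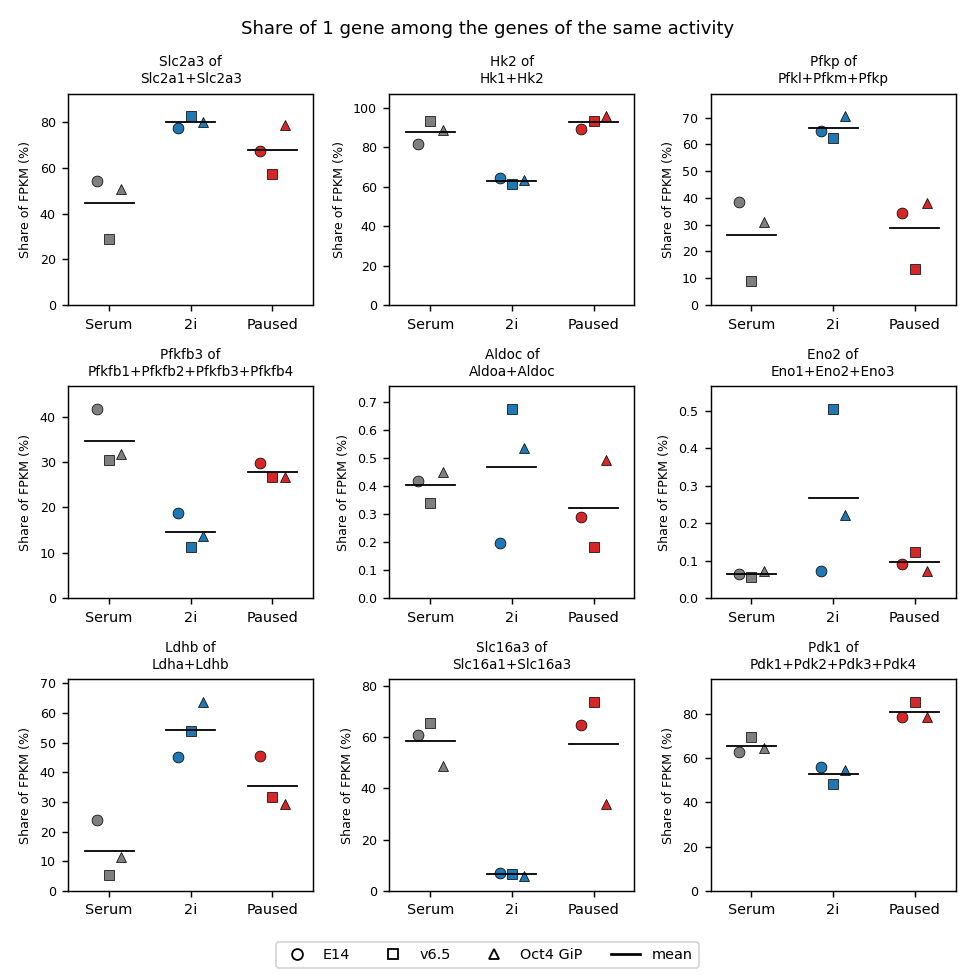
Share of 1 gene in the summed FPKM of the genes encoding the same activity (y axes in percent, from 0), by condition; each point is 1 library, its shape the cell line, and the bar is the mean of 3. Pdk1 and Pfkfb3 separate all 3 conditions, whereas Slc16a3 separates only 2i, at 5.84% to 6.78%.

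By their calls the genes fell into a few groups. How often such combined calls occur over all genes was not computed, so the groups are a description only. Lower than Serum in both 2i and Paused were Slc2a1, Tpi1, Pgk1, Pgam1, Pkm and Ldha, and Pkm and Ldha of these were also higher in Paused than in 2i. Lower in 2i than in both Serum and Paused, with Paused and Serum not called different, were Pfkl, Pfkfb1, Pfkfb3, Eno1, Eno3 and Slc16a3. Higher in 2i than in both were Hk1, Gpi1, Pfkp and Mpc1, again with no call between Paused and Serum (Pfkfb4 is left out here because of how it passed the filter). Bpgm and Pdhb were lower in Paused than in both other conditions, and Pdk1 and Pdp1 were higher. A set of 10 genes was called in no comparison, namely Slc2a3, Hk2, Aldoc, Gapdh, Eno2, Ldhb, Pdha1, Dlat, Pdk2 and Pdk4.

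Some levels are uncertain because of other genes. Beside Gapdh and Eno1, stretches of at least 300 bases with 95% identity or more occur in 4 other genes for Pgk1, in 3 for Ldha, and in 1 each for Gpi1, Tpi1, Pgam1, Pkm, Ldhb and Pdhb, all of them pseudogenes. Such stretches also occur in a gene that is no pseudogene for Pfkp (Pitrm1), Pfkfb2 (Gm29427) and Pdha1 (Map3k15), each of which overlaps the member's own exons, which makes 13 genes in all with Eno1 and Gapdh. Exons of 11 of the 37 genes overlap a gene on the opposite strand, among them Slc2a1, Hk1, Pfkp, Tpi1, Gapdh, Mpc1 and Pdha1. Whether fragments were counted by strand is not stated, so reads of such partners cannot be told apart.

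Other genes of the same chemistry were read from lists beside the 37. Of 41 further genes of sugar and pyruvate handling 24 were tested, and 2 were higher and 2 lower in Paused, 7 higher and 2 lower in 2i, each against Serum, and 4 higher and 8 lower in Paused against 2i. Over all genes the shares called were 7.64% higher and 10.5% lower, 21.7% and 18.9%, and 19.8% and 24.6% in these comparisons, and they are the background for the counts of every list here. The same list on the authors' scale had 0 higher and 19 lower, 3 higher and 8 lower, and 1 higher and 13 lower. Pck2, the mitochondrial enzyme that makes phosphoenolpyruvate from oxaloacetate, was at 11.4 ± 3.41 FPKM in Serum, 76.4 ± 41.0 in 2i and 5.82 ± 2.94 in Paused (2i against Serum 2.56 ± 0.15, adjusted p = 0.000564; Paused against 2i -3.47 ± 0.15, adjusted p = 0.000259). Pdp2, the second phosphatase of pyruvate dehydrogenase, was at 5.16 ± 0.589 FPKM in Serum, 21.8 ± 4.78 in 2i and 5.02 ± 0.894 in Paused (2i against Serum 1.87 ± 0.11, adjusted p = 0.000625). Of these phosphatase genes, Pdp1 was thus highest in Paused and Pdp2 in 2i.

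The pentose phosphate pathway, which branches off at glucose-6-phosphate, had all 12 of its listed genes tested. In Paused against Serum 0 were higher and 3 lower, in 2i against Serum 3 were higher and 1 lower, and in Paused against 2i 1 was higher and 6 lower. The 3 of 12 higher in 2i is near the 21.7% of all genes. The counts on the authors' scale were 0 and 11, 2 and 2, and 0 and 8. Pgd, its second dehydrogenase, was at 88.4 ± 6.98 FPKM in Serum, 158 ± 17.4 in 2i and 65.2 ± 0.335 in Paused (2i against Serum 0.82 ± 0.10, adjusted p = 0.00209). Prps1, which makes the ribose donor for nucleotides, was lower in 2i than in Serum (-0.81 ± 0.09, adjusted p = 0.00172). Glycogen metabolism had 18 of 20 genes tested, with 2 higher and 2 lower in Paused against Serum, 8 higher and 2 lower in 2i against Serum, and 1 higher and 7 lower in Paused against 2i. With the authors' constants they were 0 higher and 15 lower, 4 and 2, and 0 and 13. Pgm1, a gene of this list, was at 11.0 ± 2.83 FPKM in Serum, 34.0 ± 3.53 in 2i and 7.66 ± 1.28 in Paused (2i against Serum 1.56 ± 0.10, adjusted p = 0.000716).

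Regulators of glycolytic transcription, 22 of 22 tested, included 3 higher and 0 lower in Paused against Serum, 3 higher and 9 lower in 2i against Serum, and 11 higher and 2 lower in Paused against 2i, beside 19.8% and 24.6% of all genes in the last. On the authors' scale the direction turned in Paused against Serum, with 0 higher and 15 lower, and the other counts were 0 and 11, and 6 and 6. Myc, a transcription factor that promotes glycolytic genes, was at 61.0 ± 5.07 FPKM in Serum, 5.57 ± 1.86 in 2i and 83.2 ± 16.3 in Paused (2i against Serum -3.27 ± 0.15, adjusted p = 0.000564). Lin28a, an RNA-binding protein of pluripotent cells, was at 212 ± 44.0, 18.1 ± 12.9 and 240.3 ± 38.7 FPKM in the same order (2i against Serum -3.66 ± 0.35, adjusted p = 0.00145). Of HIF-1 targets outside glycolysis 18 of 20 were tested. Among these 0 were higher and 5 lower in Paused against Serum, 4 higher and 5 lower in 2i against Serum, and 2 higher and 7 lower in Paused against 2i. The 4 of 18 higher in 2i is near the 21.7% of all genes, and on the authors' scale the counts were 0 and 14, 3 and 7, and 1 and 11. The targets did not move together in 2i, where Vegfa, an angiogenic factor, was higher than in Serum (1.97 ± 0.15, adjusted p = 0.000903) and Bnip3, a mitophagy receptor, was lower (-1.92 ± 0.17, adjusted p = 0.00126). As for the 37 genes, the 3 comparisons of these lists share libraries. The Paused against Serum calls of these lists come from the fit in which 12 to 38 genes remained called over the whole table without E14 Paused, v6.5 Paused, Oct4 GiP Paused or Oct4 GiP Serum.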

How the data were processed

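RNA was measured in 9 libraries, 3 conditions in 3 cell lines, from 250 ng of total RNA with a directional kit and spike-in RNA, per the labels' protocols. The deposited table gives 2 columns per library (18 in all, 0 without a sample). The first is FPKM from the authors' run of Cuffnorm on mm10, per the submitters' processing notes. The second is a signal the authors call normalized, which the values show to be FPKM times 1 constant per library; not given in the sources used here are its origin, the aligner, the annotation, the software version and the strand setting of the counting. The table has 29801 rows, of which 5644 (18.9%) without a gene name and 113 identical repeats were left out. It holds no counts, so depth is unknown.

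Genes at 1 FPKM or more in at least 3 libraries (12711) were fitted with limma-trend (limma 3.58.1, R 4.3.3) on log2(FPKM + 1), which understates changes of low genes, with the cell line as block and the 9 libraries fitted together. The fit was tested on simulated data. P-values were adjusted by Benjamini-Hochberg with a threshold of 0.05, and they measure how condition differences vary between 3 lines. The line pairs the libraries by label; deviations from condition means correlated at -0.001 to 0.401 within a line (9 pairs) and at -0.243 to 0.094 between lines (18 pairs). Isoform shares were compared with exact permutation tests of 3 against 3, which did not use the pairing by line. A paired permutation test of 3 lines can give no p below 0.25. Alternatives were a fit without the block, a pseudocount of 0.1, no filter, the authors' normalized columns, centring on the median gene, only the libraries of the conditions compared, and leaving out each library. Near-identical copies were found with blastn 2.17.0 in GENCODE M21, whose build is GRCm38. The members and lists were chosen with earlier results of these data known. All 37 members may be named, and from each list up to 4 called genes per comparison by size of change (2 if no gene was called); not all of these are printed.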

Additional observations from a re-analysis of the deposited data

How the results depend on the processing

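The constants of the authors' normalized columns lower Paused values relative to Serum and 2i. On these columns 10 of the 37 Paused against Serum differences turned from positive to negative: Slc2a3 (-0.79), Hk2 (-0.76), Pfkfb2 (-0.30), Eno2 (-0.48), Eno3 (-0.81), Ldhb (-0.40), Pdha1 (-0.85), Pdk1 (-0.059), Pdk2 (-0.02) and Pdk4 (-0.68). In 2i against Serum 7 did, Pdhb (-0.15) and, called on neither scale, Hk2, Bpgm, Eno2, Mpc2, Pdha1 and Pdk4. In Paused against 2i 9 did, Tpi1 (-0.56), Gapdh (-0.54) and Pdha1 (-0.50) and, called on neither scale, Slc2a1, Hk2, Pgk1, Eno2, Slc16a1 and Pdk2. On that scale 0 genes of the 37 were higher and 29 lower in Paused against Serum (9827 of all genes called), 3 were higher in 2i against Serum, and 20 were lower in Paused against 2i. All 10 genes called lower in Paused than in Serum were called lower on that scale too. The constants lower every such difference, and 9779 of all genes were called lower there, so this is no separate support. With no filter 1 gene, Pdk1, was higher in Paused against Serum, and the calls of Pfkfb2, Pdp1, Aldoa, Pkm and Pdk3 ended there, those of Pfkp, Slc16a1 and Pdhb in 2i against Serum, and those of Pfkp, Ldha and Mpc2 in Paused against 2i. With only the libraries of the conditions compared, 4 genes were higher in 2i against Serum and 2985 of all genes were called; the calls of Pfkp, Pfkfb4, Slc16a1 and Pdhb ended there, those of Aldoa and Pkm in Paused against Serum, and those of Pfkfb4 and Mpc2 in Paused against 2i. Leaving out each library gave 0 to 4 genes higher and 0 to 12 lower in Paused against Serum, with 12 to 3223 of all genes called. It gave 4 to 9 higher with 2969 to 5436 called in 2i against Serum, and 6 to 10 lower with 3543 to 5611 called in Paused against 2i. Fewer samples enter those fits. Differences in share changed sign on leaving out a library for Pfkp (-6.07 to 10.1 points) and Slc16a3 (-9.18 to 10.7) in Paused against Serum and for Aldoc (-0.0368 to 0.202) in 2i against Serum; the cause was not tested. Without the replicate block, 11 of 13, 19 of 21 and 16 of 19 calls were kept in the 3 comparisons, and 1602, 4368 and 4797 of all genes were called instead of 2311, 5161 and 5638. Centring on the median gene lowered every 2i against Serum difference by 0.11 and ended the calls of Pfkfb4 and Pdhb. A pseudocount of 0.1 kept all 13, 21 and 19 calls. With 3 lines, 1 library each and unknown depth, differences near the threshold are not settled, and values near 1 FPKM are the least precise.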
